A study of Mus musculus with 12 samples.

Results

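The core genes of the Hedgehog pathway were followed in bulk RNA-Seq of mouse skin. They are the ligand gene Shh, the receptor genes Ptch1, Boc and Hhip, the signal transducers Smo and Sufu, and the transcription factors Gli1, Gli2 and Gli3. They were taken by symbol, and all 9 were present among the 55453 genes of the count file and all 9 passed the filter on low counts, which kept 18311 genes. Skin came from 12 female mice on the C57/BL6 background, aged 8 to 12 weeks, in 4 groups of 3. WT PBS mice (159, 160 and 161) and WT BLM mice (145, 146 and 147) carried intact Thy-1, while KO PBS mice (136, 137 and 139) and KO BLM mice (141, 143 and 144) carried a Thy-1 knockout in all cells, so that the knockout is not limited to 1 cell type. BLM mice received bleomycin (10 mg/kg/d), a drug that induces dermal fibrosis, and PBS mice received the vehicle alone. Both were injected s.c. in the back for up to 14 days and skin was collected at day 21. Thy-1 is a surface glycoprotein of fibroblasts, T cells and neurons. The comparisons ask how bleomycin changed skin RNA in each genotype, and how the genotypes differed under each treatment.

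Hedgehog ligands bind the receptor Ptch1, which otherwise holds Smo in check. Released Smo acts at the primary cilium to free the Gli proteins from Sufu, and Gli1, Ptch1 and Hhip are themselves transcribed in response, so their RNA is widely used as a readout of the pathway. In skin, Shh is made by the epithelium of growing hair follicles and acts both on neighbouring epithelium and on the dermal papilla beneath it, and the amount of Shh RNA follows the hair cycle. Because whole skin was sequenced, fewer cells of a type and less RNA per cell cannot be told apart in any of the values below.

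The 12 libraries held 26473700 to 38890450 counts each (median 31494965). Thy1 RNA was present in every mouse, at 104 to 150 CPM (counts scaled to library size) in WT PBS and 231 to 416 CPM in WT BLM mice. KO PBS mice had 45.6 to 96.9 CPM and KO BLM mice 84.7 to 128 CPM. They were thus below every WT mouse of the same treatment, but Thy1 RNA was not absent, and it was not determined here which part of the transcript remained. Markers of the growing hair follicle set some mice apart from their group. A list of 20 hair shaft and inner root sheath genes had a mean log2 CPM of 9.65 to 10.35 in WT PBS mice and of -1.21 to 3.31 in WT BLM mice, with 2 of the 20 genes at 0 in mice 145 and 147. KO PBS mice spanned the whole range, at 10.22 in mouse 136, -1.57 in mouse 137 with 5 genes at 0, and 1.44 in mouse 139. KO BLM mice had 9.21 in mouse 141, 4.87 in mouse 143 and 6.08 in mouse 144. The defining genes of the other cell types examined were detected in all 12 mice, and the skeletal muscle list summed to 5079 to 5789 CPM in WT PBS and to 17900 to 36230 CPM in WT BLM mice.

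In WT mice, 8 of the 9 core genes fell after bleomycin and 0 rose, where 14.1% of all genes tested fell and 34% changed in either direction (edgeR, adjusted p under 0.05). The falls ran from 14.3-fold for Shh to 1.49-fold for Smo, and Boc was the gene that did not pass the test. The median log2 fold change of the 9 genes was -1.41, beside 0.02 over all genes tested. No WT BLM mouse reached the lowest WT PBS mouse for any of the 9 genes, a separation that 57% of all genes showed in this comparison. In KO mice 0 of 9 core genes passed the test, beside 0.306% of all genes, and their median log2 fold change was 0.11. There 1 of 9, Boc, had an unadjusted p under 0.05, beside 20% of all genes, and DESeq2 called the same gene, beside 6.14% of all genes. There were 2 of 9, Shh and Boc, that did not overlap between the KO groups, beside 19.3% of all genes. The p-values set each difference against the spread between mice, estimated from all 12 mice in a common fit, with 3 in a group.

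**Figure D1:**
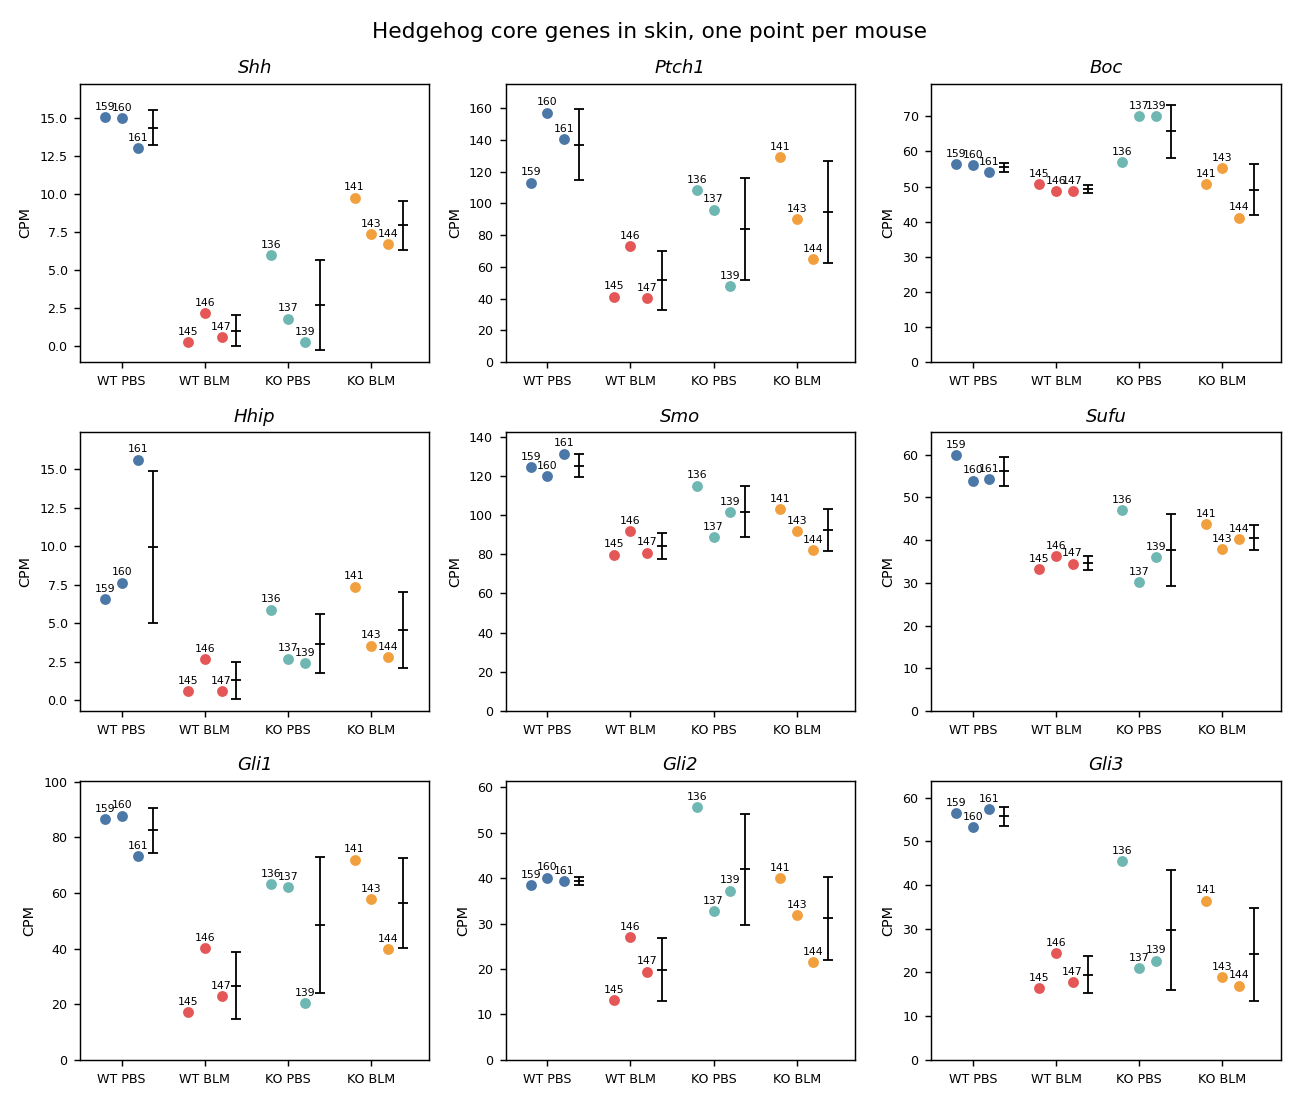
CPM (counts scaled to library size, y axis) of the 9 Hedgehog core genes in each mouse, by group (x axis), with the mouse number above each point and the group mean ± SD (n = 3) as a black bar. The 3 WT BLM mice lie below the 3 WT PBS mice in all 9 panels, and KO PBS mouse 136 lies above KO PBS mice 137 and 139 in every panel except that of Boc.

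Shh encodes the ligand made by hair follicle epithelium. Its level was 15.05, 14.97 and 13.04 CPM in WT PBS mice 159, 160 and 161, and 0.235, 2.15 and 0.591 CPM in WT BLM mice 145, 146 and 147. In KO mice it was 5.98, 1.80 and 0.268 CPM in PBS mice 136, 137 and 139, and 9.76, 7.35 and 6.68 CPM in BLM mice 141, 143 and 144. The WT PBS mice were thus the highest, all KO BLM mice came next, and the lower levels were shared by KO PBS and WT BLM mice, whose ranges overlapped. At the lowest, Shh rested on 6 counts in WT BLM mouse 145 and on 9 counts in KO PBS mouse 139. In WT mice Shh fell 14.3-fold after bleomycin (log2 fold change -3.83 ± 0.96 SE, adjusted p = 0.0164). In KO mice the mean was 2.96-fold higher after bleomycin than after PBS (log2 fold change 1.57 ± 0.87 SE, adjusted p = 0.331), with no overlap between the groups but no pass of the test. It was called higher there without KO PBS mouse 136 (log2 fold change 2.93, adjusted p = 0.0452, edgeR), when 14% of all genes were called, and without both KO PBS mouse 136 and KO BLM mouse 141 (2.75, adjusted p = 0.0498), when 22.3% were.

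The position of Shh limits what the counts can separate. The gene lies at chr5:28456815-28467256 on the minus strand (GENCODE M21, GRCm38), and its exons share 446 bases with 9530036O11Rik and 361 bases with Gm26894, both on the opposite strand. The libraries were stranded, but how strand was used in counting is not given in the sources used here. Gm26894 summed to 102 counts over the WT PBS mice and 6 over the WT BLM mice, and to 19 and 72 counts over the PBS and BLM mice of the KO genotype, which is the order of Shh itself, and reads of the opposite strand in Shh cannot be told apart from Shh reads if strand was ignored. These sums are small beside the 445 to 512 counts of Shh in each WT PBS mouse. The other Hedgehog ligand genes were low, Ihh with 3 to 15 counts and Dhh at 1.25 to 7.92 CPM in each mouse. Neither passed the test in WT mice (log2 fold change 0.06 and 1.13, adjusted p = 0.938 and 0.0761, edgeR).

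Ptch1, the receptor that restrains Smo and is itself induced by Gli proteins, lies at chr13:63508328-63573598 on the minus strand. It had 113, 157 and 141 CPM in WT PBS mice 159, 160 and 161. WT BLM mice 145, 146 and 147 had 41.3, 73.1 and 40.5 CPM. KO PBS mice 136, 137 and 139 had 108, 96.2 and 47.8 CPM, and KO BLM mice 141, 143 and 144 had 129, 90.2 and 64.8 CPM. The highest KO BLM mouse thus lay within the WT PBS range, and KO PBS mouse 139 and KO BLM mouse 144 lay within the WT BLM range. Ptch1 fell 2.65-fold in WT mice (log2 fold change -1.41 ± 0.36 SE, adjusted p = 0.0172), and KO BLM mice differed from KO PBS mice by a log2 fold change of 0.17 ± 0.35 SE (adjusted p = 0.810).

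Hhip encodes a membrane protein that binds Hedgehog ligands and dampens the pathway, and like Ptch1 it is a target of Gli proteins (chr8:79965851-80058006, minus strand). It was the least abundant core gene per transcript length in every group. WT PBS mice 159, 160 and 161 had 6.56, 7.63 and 15.6 CPM, and WT BLM mice 145, 146 and 147 had 0.587, 2.67 and 0.558 CPM. KO PBS mice 136, 137 and 139 had 5.88, 2.69 and 2.41 CPM, and KO BLM mice 141, 143 and 144 had 7.38, 3.54 and 2.79 CPM. Every KO mouse except 139 was above all WT BLM mice, and KO BLM mouse 141 alone entered the WT PBS range. Hhip fell 7.76-fold in WT mice (log2 fold change -2.96 ± 0.70 SE, adjusted p = 0.0137), the second largest fall among the core genes, while the log2 fold change in KO mice was 0.32 ± 0.65 SE (adjusted p = 0.805).

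RefSeq promoters (GRCm38.p6) were given for 6 of the 9 core genes, namely Ptch1, Hhip, Smo, Sufu, Gli2 and Gli3. The 250 bases before the start of Ptch1 and Hhip, the pair of these genes that are classical Gli targets, are shown with CG pairs in capitals and read 5′ to 3′ on the minus strand, at chr13:63565736-63565985 for Ptch1 and at chr8:80058009-80058258 for Hhip. The stretch of Ptch1 lies within an intron of its longer GENCODE M21 transcripts.
Ptch1: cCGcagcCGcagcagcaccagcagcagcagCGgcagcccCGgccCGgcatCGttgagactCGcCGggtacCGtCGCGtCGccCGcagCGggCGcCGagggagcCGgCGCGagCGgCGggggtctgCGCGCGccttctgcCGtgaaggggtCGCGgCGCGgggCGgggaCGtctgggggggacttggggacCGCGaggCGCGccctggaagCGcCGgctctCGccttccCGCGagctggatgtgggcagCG
Hhip: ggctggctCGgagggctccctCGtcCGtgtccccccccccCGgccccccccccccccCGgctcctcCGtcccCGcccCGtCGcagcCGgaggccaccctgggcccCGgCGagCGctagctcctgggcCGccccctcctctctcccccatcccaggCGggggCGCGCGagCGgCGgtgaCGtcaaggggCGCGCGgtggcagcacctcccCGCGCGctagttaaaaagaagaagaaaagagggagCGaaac
Ptch1 held 41 CG pairs, a number reached by 1.07% of 27025 promoters, and Hhip held 28, reached by 7.26%, beside a median of 6. The Gli binding sequence GACCACCCA was searched on both strands from 250 bases before to 50 after the start and was present in 0.244% of promoters, and its core CCACCCA in 9.32%. Neither was found in the 6 core gene promoters, which says only that these letters are not in this window.

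Boc, a co-receptor that presents the ligand to Ptch1 (chr16:44485049-44558897, minus strand), behaved unlike the others. WT PBS mice had 56.3, 56.1 and 54.0 CPM and WT BLM mice had 50.7, 48.8 and 48.7 CPM. KO PBS mice 136, 137 and 139 had 57.0, 70.0 and 70.1 CPM, and KO BLM mice 141, 143 and 144 had 50.7, 55.4 and 41.1 CPM. The highest group was therefore KO PBS, and both BLM groups lay lower with overlapping ranges. The WT fold change was 1.12-fold lower (log2 fold change -0.17 ± 0.13 SE, adjusted p = 0.308), and the 95% interval of the log2 fold change ran from -0.45 to 0.11. Boc had the smallest unadjusted p of the core genes in KO mice (log2 fold change -0.42 ± 0.13 SE, unadjusted p = 0.00681, adjusted p = 0.144, edgeR). It was called lower there by DESeq2 (adjusted p = 0.0345), which called 6.14% of all genes, and by edgeR without KO PBS mouse 136 (log2 fold change -0.51, adjusted p = 0.0250), when 14% of all genes were called.

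Smo and Sufu carry the signal from receptor to Gli proteins, Smo by relaying it and Sufu by binding and restraining Gli. Smo lies at chr6:29735503-29761365 and Sufu at chr19:46396896-46488804, both on the plus strand. Both moved little in size but with narrow spread. Smo was at 125, 120 and 131 CPM in WT PBS mice and at 79.8, 91.9 and 80.8 CPM in WT BLM mice, and it fell 1.49-fold (log2 fold change -0.57 ± 0.13 SE, adjusted p = 0.0109). KO mice were below the WT PBS mice, at 115, 88.7 and 102 CPM in PBS mice 136, 137 and 139 and at 103, 91.9 and 82.2 CPM in BLM mice 141, 143 and 144. Sufu was at 60.0, 54.0 and 54.4 CPM in WT PBS mice and at 33.2, 36.3 and 34.5 CPM in WT BLM mice, a fall of 1.62-fold (log2 fold change -0.69 ± 0.15 SE, adjusted p = 0.0101). In KO PBS mice 136, 137 and 139 Sufu was at 47.0, 30.3 and 36.0 CPM, and in KO BLM mice 141, 143 and 144 it was at 43.7, 38.0 and 40.2 CPM. All 6 KO mice were thus below every WT PBS mouse for both genes.

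Gli1, an activator and the most direct transcriptional readout of the pathway, lies at chr10:127329882-127341974 on the minus strand. It had 86.6, 87.8 and 73.1 CPM in WT PBS mice. WT BLM mice 145, 146 and 147 had 17.1, 40.1 and 22.9 CPM. KO PBS mice 136, 137 and 139 had 63.2, 62.0 and 20.4 CPM, and KO BLM mice 141, 143 and 144 had 71.96, 57.9 and 39.7 CPM. As with Ptch1, mouse 139 was at the WT BLM level while mouse 137, which had the lowest hair gene level of all mice, stayed close to mouse 136. Gli1 fell 3.09-fold in WT mice (log2 fold change -1.63 ± 0.43 SE, adjusted p = 0.0199), and its log2 fold change in KO mice was 0.22 ± 0.42 SE (adjusted p = 0.794). The ratio of Gli1 to Shh CPM was 5.61 to 5.87 in WT PBS mice and 5.94 to 7.87 in KO BLM mice, against 18.6 to 72.8 in WT BLM mice, so the ligand gene was reduced more than its readout. In KO PBS mice the ratio was 10.6 in mouse 136, 34.4 in mouse 137 and 76.1 in mouse 139. Gli1 exons share 265 bases with Gm47200, which had at most 2 counts in a mouse, and 62 bases with Arhgap9, both on the opposite strand.

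Gli2, the main activator present before Gli1 is induced, lies at chr1:118834132-119053619 on the minus strand. It was at 38.4, 40.1 and 39.4 CPM in WT PBS mice and at 13.2, 27.0 and 19.4 CPM in WT BLM mice. It fell 1.98-fold (log2 fold change -0.98 ± 0.30 SE, adjusted p = 0.0306). KO PBS mice 136, 137 and 139 had 55.7, 32.8 and 37.2 CPM, on both sides of the WT PBS mice, and KO BLM mice 141, 143 and 144 had 39.9, 31.9 and 21.5 CPM. Gli2 was the core gene besides Boc whose highest group mean was that of KO PBS mice. Gli3, which acts largely as a repressor when the pathway is off, lies at chr13:15463235-15730026 on the plus strand. It was at 56.5, 53.3 and 57.5 CPM in WT PBS mice and at 16.5, 24.4 and 17.8 CPM in WT BLM mice, a fall of 2.85-fold (log2 fold change -1.51 ± 0.35 SE, adjusted p = 0.0128). KO PBS mice 136, 137 and 139 had 45.5, 21.0 and 22.7 CPM and KO BLM mice 141, 143 and 144 had 36.5, 19.0 and 17.0 CPM. In both KO groups 1 mouse therefore stood well above the other 2, and these were mice 136 and 141, the KO mice with the highest hair gene levels. The repressor and the activators thus fell together in WT mice. Gli3 exons share 188 bases with Gm6556 on the opposite strand, which summed to 201 counts in WT PBS and 61 in WT BLM mice.

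The core gene calls in WT mice differed in how far they held when 1 WT mouse was left out. The share of all genes called in WT mice also fell in these fits, from 34% with every mouse included. It was 21.5%, 19.8% and 17.6% without WT BLM mice 145, 146 and 147. Without WT PBS mice 159, 160 and 161 it was 14%, 13.9% and 18.1%. Lost calls were thus not particular to the core genes. Hhip, Smo, Sufu and Gli3 stayed below the threshold when any 1 of the 6 WT mice was left out. Shh lost its call without WT BLM mouse 147 (adjusted p = 0.0575), and Ptch1 lost it without mouse 145 (adjusted p = 0.0541) or mouse 147 (adjusted p = 0.0596). Gli1 lost its call without mouse 145 (adjusted p = 0.0609), 147 (0.0645), 159 (0.0527) or 160 (0.0510). Gli2 kept it only without WT BLM mouse 146, and otherwise had adjusted p from 0.0638 to 0.0838 without a WT mouse. All 9 genes kept a negative log2 fold change in each of these fits, and the fold changes of Shh (-5.08) and Hhip (-4.11) were largest without mouse 146, the WT BLM mouse with the highest levels of all core genes except Boc.

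**Figure D2:**
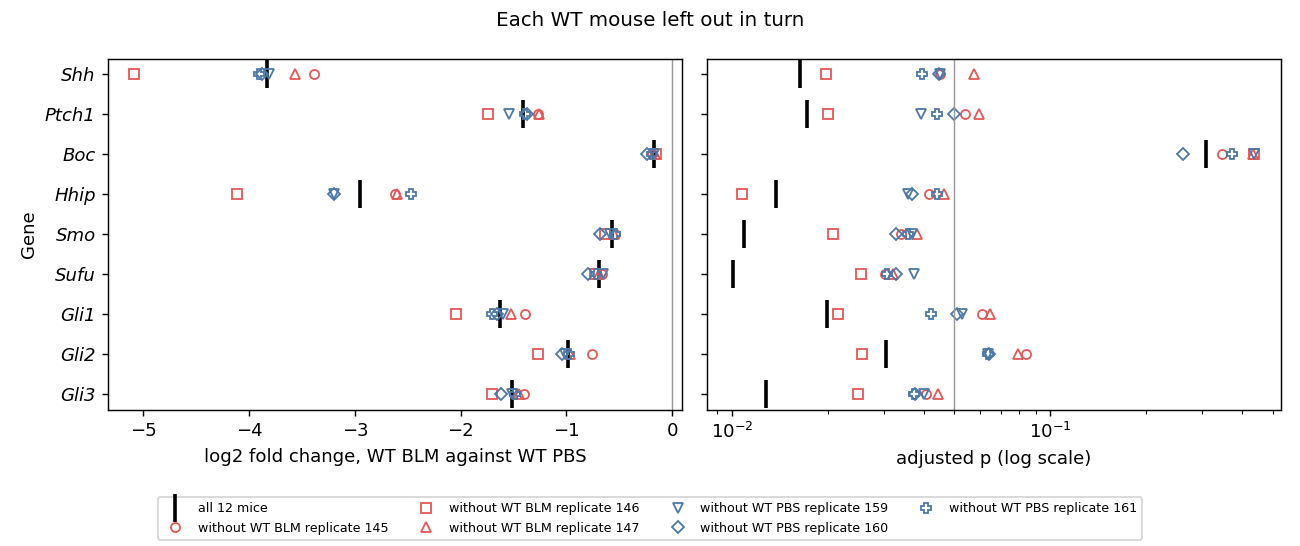
Log2 fold change of WT BLM against WT PBS mice (left, x axis) and its adjusted p (right, x axis on a log scale) for each core gene (y axis), with all 12 mice (black bar) and with each WT mouse left out (red symbols for BLM mice, blue for PBS mice). The grey line on the right is at 0.05, and Hhip, Smo, Sufu and Gli3 lie to its left in all 6 fits.

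Under PBS, the core genes were lower in KO than in WT mice for 7 of 9 genes by fitted fold change, but 0 of 9 passed the test, beside 0.0655% of all genes (edgeR). With an unadjusted p under 0.05 there were 4, beside 20.4% of all genes, and DESeq2 called 1, Sufu (log2 fold change -0.57, adjusted p = 0.0186), beside 3.83% of all genes. The groups did not overlap for 8 of 9 genes, all except Gli2, where 18.9% of all genes showed this. Shh was 5.36-fold lower by mean (log2 fold change -2.42 ± 0.89 SE, adjusted p = 0.213), Hhip 2.72-fold (-1.44 ± 0.65 SE, adjusted p = 0.246) and Gli3 1.87-fold (-0.91 ± 0.34 SE, adjusted p = 0.218). Sufu was 1.49-fold lower (-0.57 ± 0.15 SE, adjusted p = 0.198). Leaving out KO PBS mouse 136 gave 5 calls, with Shh (log2 fold change -3.79, adjusted p = 0.00863), Gli3 (-1.35, adjusted p = 0.00863), Sufu (-0.76, adjusted p = 0.00166) and Smo (-0.40, adjusted p = 0.0318) lower and Boc (0.34, adjusted p = 0.0497) higher, while 36.7% of all genes tested were then called. Mouse 136 was close to the WT PBS mice in its hair gene list, but it also stood apart from mice 137 and 139 in other lists. Its skeletal muscle list summed to 6531 CPM, against 26240 and 23570 CPM in mice 137 and 139. The macrophage list summed to 472.9 CPM, against 2300 and 1806 CPM, and the fibroblast list to 5619 CPM, against 18490 and 14730 CPM. The dermal papilla list was alike, at 122.2 CPM against 106.9 and 114.1 CPM. The part of mouse 136 in the result was tested only by leaving it out.

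Under bleomycin, 8 of 9 core genes had a positive log2 fold change for KO against WT mice, with a median of 0.65 beside -0.03 over all genes, and 0 of 9 passed the test, beside 0.0928% of all genes (edgeR). With an unadjusted p under 0.05 there were 4, beside 16.6% of all genes, and DESeq2 called Shh (adjusted p = 0.0207), beside 3.34% of all genes. Shh was 7.89-fold higher by mean in KO BLM mice (log2 fold change 2.98 ± 0.93 SE, adjusted p = 0.235) and Hhip 3.57-fold (1.83 ± 0.68 SE, adjusted p = 0.264). Gli1 was 2.12-fold higher (1.08 ± 0.43 SE, adjusted p = 0.274) and Ptch1 1.83-fold higher (0.87 ± 0.35 SE, adjusted p = 0.277). The groups did not overlap for Shh, Hhip and Sufu, 3 of 9 genes, where 27.5% of all genes did not. Boc was level between the genotypes under bleomycin, with a log2 fold change of -0.01 and a 95% interval from -0.29 to 0.27. KO PBS mouse 136 is in no group of this comparison but enters the common estimate of the spread, and without it Shh was called (adjusted p = 0.0400), beside 6.89% of all genes.

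The bleomycin responses were then compared between genotypes. Their difference, taken as the KO minus the WT log2 fold change, was positive for 8 of 9 core genes and had a median of 1.21, beside -0.05 over all genes. edgeR called 0 of 9, as it called 0 of all genes (0%), while 7 of 9 core genes had an unadjusted p under 0.05, a share reached by 31.1% of all genes. The differences were 5.40 ± 1.29 SE for Shh (adjusted p = 0.0702), 3.28 ± 0.94 SE for Hhip (adjusted p = 0.0778), 1.85 ± 0.60 SE for Gli1 (adjusted p = 0.0912), 1.58 ± 0.50 SE for Ptch1 (adjusted p = 0.0883) and 0.80 ± 0.21 SE for Sufu (adjusted p = 0.0721). DESeq2 called these 5 genes, where it called 18.5% of all genes. Without KO PBS mouse 136, edgeR called 7 of 9 core genes, all except Boc and Gli2, and 39.9% of all genes, with a difference of 6.76 for Shh (adjusted p = 0.00171). The contrasts share their groups, so the fold changes of the 5 comparisons are not independent of each other.

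**Figure D3:**
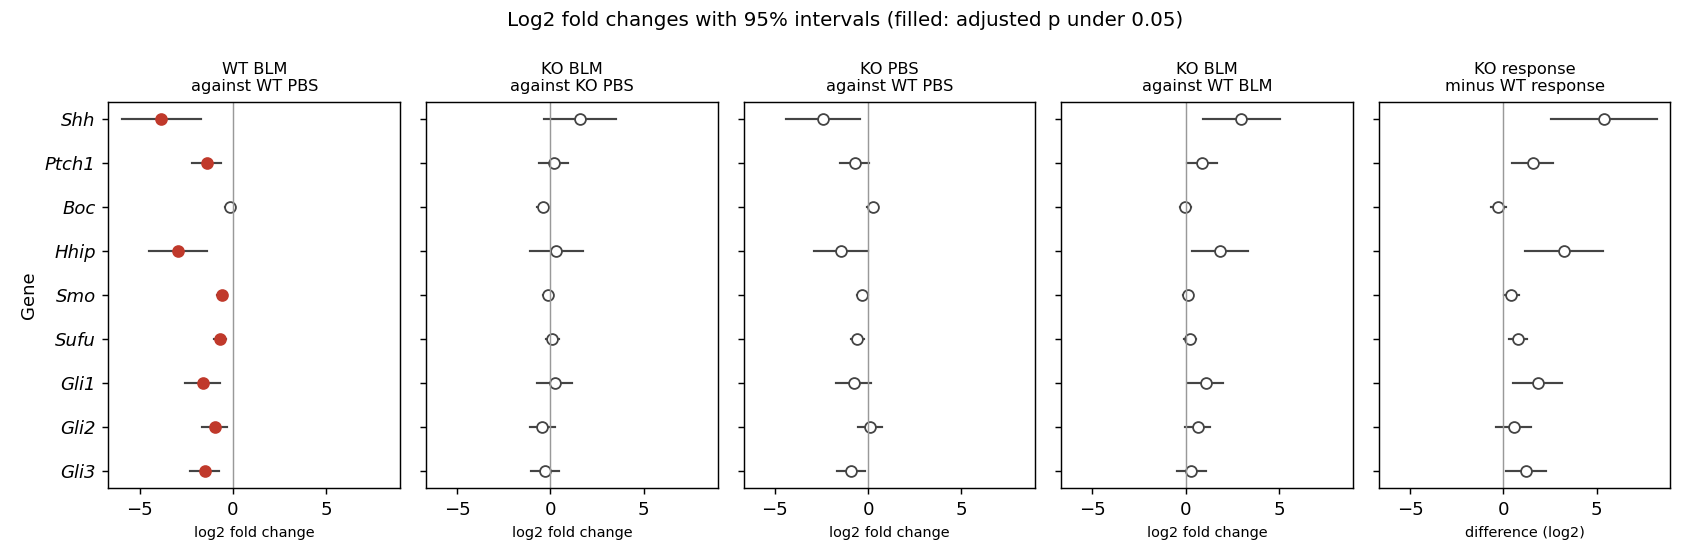
Log2 fold change (x axis) with its 95% interval for each core gene (y axis) in the 4 comparisons between groups and, at the right, the difference between the KO and WT bleomycin responses. Filled points passed an adjusted p under 0.05 in edgeR, which 8 of 9 genes did in WT mice and 0 of 9 in the other panels.

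In WT mice, markers of the growing hair follicle fell along with 8 of the 9 core genes. The list counts that follow stand beside 14.1% of all genes called lower and 34% called in either direction. All 5 hair matrix regulators (Hoxc13, Foxn1, Msx2, Dlx3 and Lef1) fell in WT mice, with mean log2 CPM of 7.68 to 7.77 in WT PBS and of 3.14 to 3.50 in WT BLM mice. Of 10 proliferation genes 8 fell, from a mean log2 CPM of 5.67 to 5.87 down to 4.06 to 4.58. The 20 hair shaft and inner root sheath genes all had a negative fold change and 10 were called. With the mean of that hair list as a covariate, 0 of 9 core genes were called in WT mice, 0 had an unadjusted p under 0.05, and 17 of all genes were called. The WT log2 fold changes were then -2.00 for Shh, -1.49 for Hhip, -1.08 for Gli1, -0.79 for Ptch1, -0.41 for Gli3, -0.26 for Smo, -0.25 for Sufu and -0.21 for Gli2, all still negative, and that of Boc was -0.38. WT PBS and WT BLM mice did not overlap in the hair list, so treatment and hair follicle content cannot be told apart within WT mice. The fibroblast, macrophage and skeletal muscle lists moved the other way, with 5 of 8, 7 of 9 and 9 of 10 genes higher in WT BLM mice. Of 9 dermal papilla genes 5 fell and 2 rose, and of 8 epidermis genes 1 rose. Only the hair shaft and inner root sheath list was used as a covariate, and the part of the other lists in the result was not tested.

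**Figure D4:**
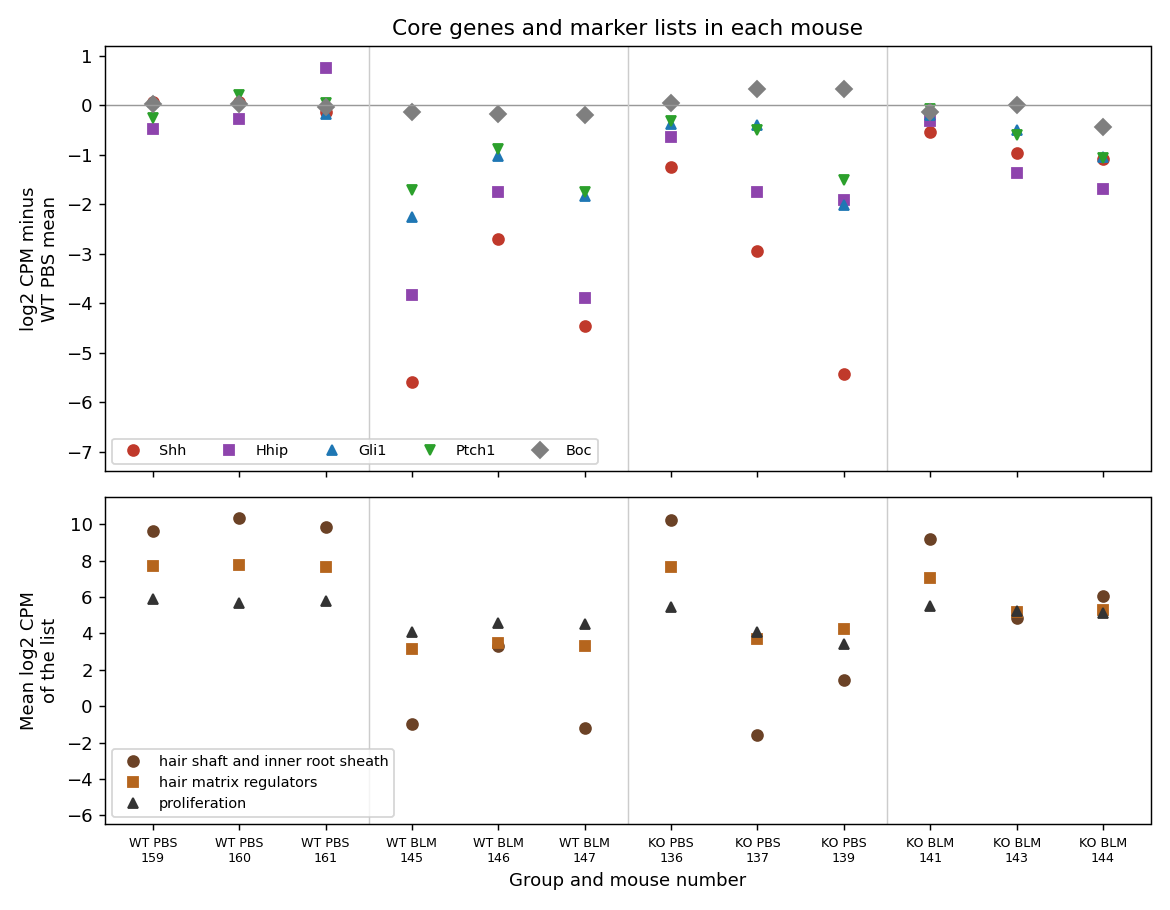
Upper panel, log2 CPM minus the WT PBS mean (y axis) of Shh, Hhip, Gli1, Ptch1 and Boc in each mouse (x axis). Lower panel, mean log2 CPM of 3 marker lists in the same mice, where the hair shaft and inner root sheath list is at 9.65 to 10.35 in WT PBS mice, 10.22 in KO PBS mouse 136 and -1.57 in KO PBS mouse 137.

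In the mice that departed from their group, the core genes can be set beside the hair list. KO PBS mouse 136 and KO BLM mouse 141 had hair gene levels near those of WT PBS mice. Their Shh (5.98 and 9.76 CPM) was below every WT PBS mouse (13.04 to 15.05 CPM). Their Gli2 (55.7 and 39.9 CPM) was not below the WT PBS range (38.4 to 40.1 CPM). Mouse 137 had the lowest hair list of all 12 mice, and its Shh was 1.80 CPM. Its Gli1 (62.0 CPM) and Ptch1 (96.2 CPM) were above those of every WT BLM mouse. Mouse 139 had a higher hair list than mouse 137, with less Shh, Gli1 and Ptch1. KO BLM mice 143 and 144, with hair lists of 4.87 and 6.08, had Shh at 7.35 and 6.68 CPM. In mouse 136, whose hair list was 10.22, Shh was lower. What set the levels in these single mice was not tested.

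Per transcript length, as FPKM (CPM divided by exon length in kilobases), Smo was the most abundant core gene in every group and Hhip the least. In WT PBS mice the order was Smo (22.3 FPKM), Gli1 (16.5), Boc (12.5), Ptch1 (9.66), Sufu (7.29), Gli3 (5.81), Gli2 (5.72), Shh (5.04) and Hhip (1.10). In WT BLM mice Boc (11.1 FPKM) stood above Gli1 (5.34 FPKM), and Shh and Hhip were at 0.349 and 0.140 FPKM. In KO BLM mice Gli1 (11.3 FPKM) and Boc (11.02 FPKM) were close, and Shh was at 2.79 FPKM. The levels use the summed exon length of each gene, unused exons included.

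Among 13201 genes whose mean log2 CPM was 1 or more, the genes whose pattern over the 12 mice was most like each core gene were found by the root mean square (RMS) difference of log2 CPM, each gene centred on its own mean. Ptch1 and Gli1 were each other's nearest gene, at an RMS difference of 0.233, beside an SD of 0.682 for Ptch1 and 0.828 for Gli1. Next to Ptch1 came Hells and Kntc1 (0.261 and 0.267), and next to Gli1 came Exo1 and Esco2 (0.332 and 0.352). Nearest to Shh were Dclk3 (0.736) and Mycn (0.787), beside an SD of 2.10, and nearest to Hhip were Cldn10 (0.420), Scube3 (0.464) and Slc27a6 (0.466), beside an SD of 1.39. Gli2 was closest to Tcf7l1 (0.183), Fzd2 (0.204) and Il11ra1 (0.207), and Gli3 to Fam84b (0.140) and Plekha8 (0.156). The nearest genes of Sufu were Fbxo42 (0.069), Tcf3 (0.092) and Tex10 (0.092), those of Smo were Cdc40 (0.076), Zfp961 (0.076) and Ap1g1 (0.077), and those of Boc were Tmcc3 (0.089), Zfp983 (0.096) and Nek3 (0.098). Smo, Sufu and Boc varied little (SD of 0.253, 0.315 and 0.215), so a small difference from them says less. Within the core, Smo and Sufu differed by 0.146, and Shh was far from all others, at 1.13 from Hhip and 1.31 from Gli1.

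The rest of the pathway was followed with a list of 53 genes, of which 52 passed the filter, all except Foxf2. In WT mice 6 rose and 9 fell after bleomycin, 15 of 52 genes beside the 34% of all genes called, and their median log2 fold change was -0.20. By role, 2 of 7 ligand and release genes fell, 3 of 34 transduction genes fell and 5 rose, and 3 of 6 target genes fell and 1 rose. In KO mice edgeR called 0 of 52, with 10 at an unadjusted p under 0.05, beside 20% of all genes, and 2 called by DESeq2, beside 6.14% of all genes.

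Among the genes that passed the test in WT mice, the 4 largest falls were those of Foxe1, Mycn, Scube3 and Scube1. Foxe1, a Gli target gene of the hair follicle that encodes a transcription factor, had 1301, 1459 and 1662 counts in WT PBS mice 159, 160 and 161 and 2, 46 and 5 counts in WT BLM mice 145, 146 and 147 (log2 fold change -6.23 ± 1.86 SE, adjusted p = 0.0299). In KO PBS mice it was at 45.6 CPM in mouse 136 and at 0.171 and 0.507 CPM in mice 137 and 139, the widest split of a pathway gene within that group among those named here. Mycn, a proliferation gene induced by Hedgehog signals in several tissues, was at 52.3, 44.5 and 46.6 CPM in WT PBS mice and at 2.31, 5.999 and 3.58 CPM in WT BLM mice (log2 fold change -3.59 ± 0.75 SE, adjusted p = 0.00942). Mycn was at 40.7, 8.97 and 4.35 CPM in KO PBS mice 136, 137 and 139 and was lowest in mouse 139, as was Shh, while Foxe1 was lowest in mouse 137.

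The Scube proteins help to release the lipid-bearing ligand from the cells that make it. Scube3 was at 44.8, 39.4 and 55.2 CPM in WT PBS mice and at 2.58, 10.9 and 4.69 CPM in WT BLM mice (log2 fold change -2.94 ± 0.47 SE, adjusted p = 0.00463). It was at 13.8, 11.6 and 8.55 CPM in KO PBS mice 136, 137 and 139 and at 29.2, 23.0 and 15.6 CPM in KO BLM mice 141, 143 and 144, with no overlap between these groups (log2 fold change with a 95% interval from 0.04 to 1.97, adjusted p = 0.237). Scube1 was at 17.2, 15.7 and 17.3 CPM in WT PBS mice and at 1.21, 5.02 and 1.31 CPM in WT BLM mice (log2 fold change -2.72 ± 0.54 SE, adjusted p = 0.00797). For both Scube genes KO PBS mouse 136 was far below the WT PBS mice, at 13.8 and 2.59 CPM, and its hair list was at their level. What set these levels in 1 mouse was not tested.

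The 4 largest rises among the genes that passed the test in WT mice were those of Foxf1, Prkaca, Arrb2 and Btrc. Foxf1, a mesenchymal target of Hedgehog signals, rose from 2 to 4 counts in each WT PBS mouse to 11 to 35 counts in each WT BLM mouse (log2 fold change 2.90 ± 0.52 SE, adjusted p = 0.00604), so it stayed very low. Prkaca encodes the catalytic subunit of protein kinase A, which marks Gli proteins for processing, and it was at 90.6, 91.4 and 91.9 CPM in WT PBS mice and at 205, 137 and 156 CPM in WT BLM mice (log2 fold change 0.86 ± 0.17 SE, adjusted p = 0.00727). Arrb2, an arrestin, had a log2 fold change of 0.83 ± 0.19 SE (adjusted p = 0.0122), and Btrc, a subunit of the ubiquitin ligase that acts on Gli proteins, one of 0.78 ± 0.20 SE (adjusted p = 0.0163). All 4 of these genes act in many pathways or cell types other than Hedgehog signalling.

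**Figure D5:**
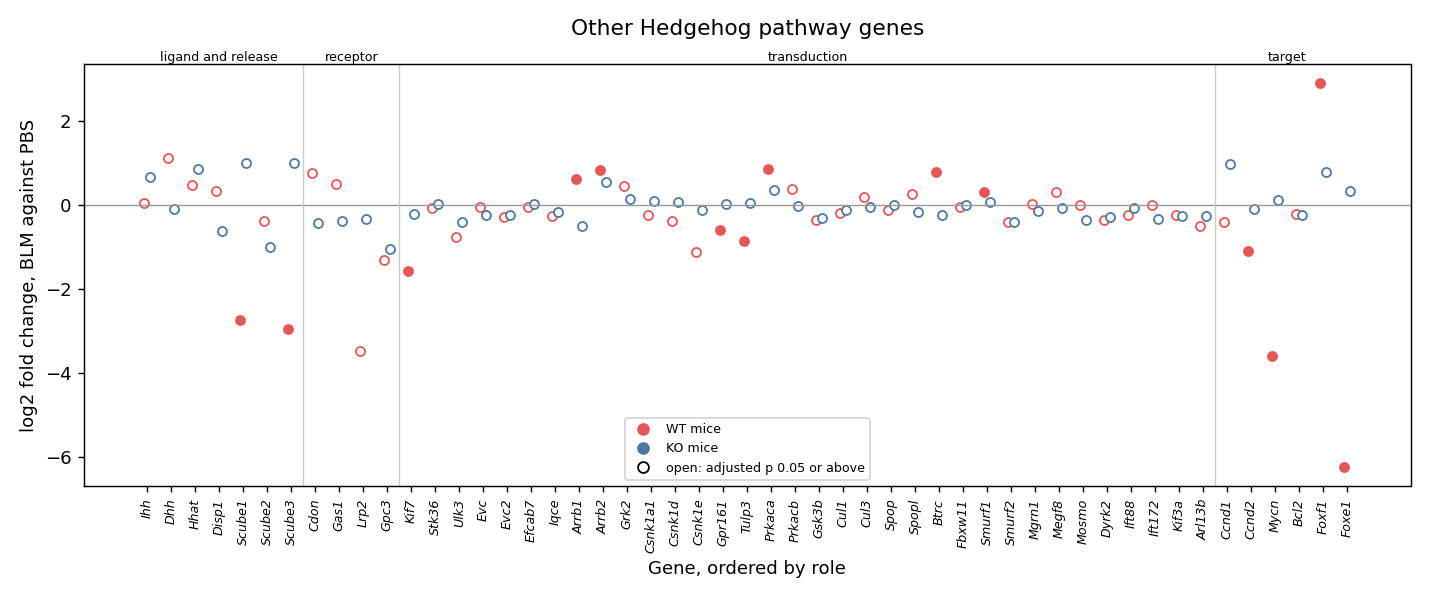
Log2 fold change of BLM against PBS mice (y axis) for 51 of the other Hedgehog pathway genes tested (x axis, ordered by role), in WT mice (red) and KO mice (blue), filled where the adjusted p was under 0.05 in edgeR. Of the WT points 6 are filled above 0 and 8 below, and 0 of the KO points are filled.

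Across the other comparisons edgeR called 0 of the 52 genes. Unadjusted p-values under 0.05 numbered 15 for KO PBS against WT PBS, beside 20.4% of all genes, 12 for KO BLM against WT BLM, beside 16.6%, and 18 for the difference between the responses, beside 31.1%. DESeq2 called 6, 3 and 11 of the 52, where it called 3.83%, 3.34% and 18.5% of all genes. Without KO PBS mouse 136, edgeR called 22, 6 and 21 of them, and 36.7%, 6.89% and 39.9% of all genes.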

How the data were processed

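RNA was extracted by the authors from skin, and stranded mRNA libraries were sequenced as read pairs. The deposited file holds raw counts per gene symbol for 12 mice, without normalization. The aligner, counter and use of strand are not given in the sources used here, and the submitters' processing notes name the build GRCm38.p6 and MultiQC 1.7. The authors' own tests used DESeq2. Counts were fitted here in edgeR 4.0.16 (R 4.3.3) after filterByExpr (minimum count 10, total 15) and TMM scaling, by its quasi-likelihood test with 1 mean per group. The 4 comparisons and the difference between responses were contrasts, with Benjamini-Hochberg adjustment over 18311 genes and a threshold of 0.05. The biological coefficient of variation was 34.9%. CPM uses TMM-scaled totals, log2 CPM a prior count of 2, and FPKM the GENCODE M21 exon length, matched by symbol for 98.2% of symbols. A normalized level is mean ± SD and a fold change ± SE.

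The members, the gene lists and the tests were chosen with earlier results of these data known. The genes named are the 9 core genes, Thy1, the other pathway genes that passed the test (where more than 8 did, the 4 largest rises and 4 largest falls), and the 3 nearest genes of each core gene, model-numbered genes left out. Single genes of these sets are not reported here. Ihh and Dhh, the overlapping genes and Foxf2 were named outside this rule. The 5 hair matrix regulators were named as a list. Krt85 of the hair list had no row of its own, which left 20 genes. The alternatives were other scalings, DESeq2 1.42.0, other filters, only the groups compared, each mouse left out, mice 136 and 141 left out together, and the hair list as a covariate. The steps were tested on simulated data. Figures were drawn with matplotlib 3.10.9.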

Additional observations from a re-analysis of the deposited data

How the results depend on the processing

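No paired analysis was possible because every mouse has its own number. With 3 mice a group, small differences can go uncalled. The part of the spread within the KO groups in the calls was tested only by leaving mice out. No fold change of a core gene that passed the test changed direction under any alternative. In WT mice the count of core genes called was 8, and 4 to 8 with 1 mouse left out (4 without WT BLM mouse 147, 5 without mouse 145), and 0 with the hair list as a covariate. For KO BLM against KO PBS it was 0, and 1 by DESeq2, 0 to 2 with 1 mouse left out, and 2 without both KO PBS mouse 136 and KO BLM mouse 141. For KO PBS against WT PBS it was 0, and 1 by DESeq2, 0 to 5 with 1 mouse left out, and 6 without both. For KO BLM against WT BLM it was 0, and 1 by DESeq2 and 0 to 1 with 1 mouse left out. For the difference between responses it was 0, and 5 by DESeq2, 0 to 7 with 1 mouse left out, and 7 without both. The count of other pathway genes called in WT mice was 15, and 25 with only the groups compared, 9 to 24 with 1 mouse left out, 28 without both and 0 with the hair covariate. For KO BLM against KO PBS it was 0, and 2 by DESeq2, 0 to 7 with 1 mouse left out, 9 without both and 3 with the hair covariate. For KO PBS against WT PBS it was 0, and 6 by DESeq2, 0 to 22 with 1 mouse left out and 23 without both. For KO BLM against WT BLM it was 0, and 3 by DESeq2, 0 to 6 with 1 mouse left out and 5 without both. For the difference it was 0, and 11 by DESeq2, 1 with no filter on low counts, 0 to 21 with 1 mouse left out and 17 without both. The largest counts with 1 mouse left out came without KO PBS mouse 136, except for core genes in WT mice, and the cause was not tested. The shares of all genes called follow in the same order of comparisons. By DESeq2 they were 34.2%, 6.14%, 3.83%, 3.34% and 18.5%. With 1 mouse left out they ran from 13.9% to 45.7%, 0% to 14%, 0.032% to 36.7%, 0.0267% to 6.89% and 0% to 39.9%. Without both they were 49%, 22.3%, 40.9%, 4.36% and 38.6%, and with the hair covariate 0.0928%, 8.95%, 0.0546%, 0.126% and 0%. With only the groups compared it was 44.6% in WT mice, and with no filter 0.0577% for the difference. Ranked by CPM without length, 6 core genes took another place in WT PBS mice, with Ptch1 at 1 (from 4), Smo at 2 (from 1), Gli1 at 3 (from 2), Sufu at 4 (from 5), Gli3 at 5 (from 6) and Boc at 6 (from 3), while Gli2, Shh and Hhip kept theirs.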
